A study of Mus musculus with 14 samples.

Results

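Here 10 genes of the circadian clock were followed through heart RNA of irradiated and control mice. They are Arntl, Clock, Npas2, Per1, Per2, Per3, Nr1d1, Nr1d2, Dbp and Tef, and were taken by gene symbol from a table of counts for 54532 genes. All 10 had a row there, and all 10 were among the 16034 genes that passed the filter on low counts. The 14 libraries came from 14 male C57BL/6J mice, 1 heart each, and in the irradiated mice the chest alone was exposed to 30 Gy of γ-rays from a cobalt source at 8 weeks of age. Hearts were taken 1 day later from 3 irradiated mice (IRR_1d) and 3 non-irradiated mice (Control_1d), and 6 weeks later from 4 irradiated mice (IRR_6w) and 4 non-irradiated mice (Control_6w). No genotype or strain difference separated the groups, and all mice were housed singly. Pentobarbital anaesthesia is described for the irradiation, and it is not stated whether the controls were anaesthetised. The time of day of collection and the lighting schedule are not given in the sources used here. The difference between 6 weeks and 1 day therefore cannot be told apart from a difference in hour of collection, in age or in handling, and it is described apart from the irradiation effect, which compares mice of the same time point. Whether irradiated and control mice of a time point were collected at the same hour is not given either.

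The clock is a loop of transcription that runs in nearly every cell, heart muscle cells included. ARNTL (also called BMAL1) pairs with CLOCK or its paralog NPAS2 and switches on genes with E-boxes in their control regions, among them the Per and Cry genes, Nr1d1, Nr1d2, Dbp and Tef. The PER and CRY proteins then shut the pair down, and the REV-ERB receptors encoded by Nr1d1 and Nr1d2 repress Arntl through response elements that they share with the ROR receptors. DBP and TEF, with HLF, carry the rhythm to output genes through D-boxes, where NFIL3 opposes them. In a rhythmic tissue the transcripts of Arntl and Npas2 peak at nearly the opposite phase to those of Nr1d1, Nr1d2, Dbp, Tef and Per3.

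The windows at the start sites of 4 of these genes are shown because the results below turn on them and each window held a match to a clock element. Windows of 300 bases (250 before and 50 after the start site) were read from RefSeq on GRCm38.p6. They covered 9 of the 10 genes in 14 windows, with none for Per2. In the windows printed here, 5′ to 3′ along the gene, capitals mark the matched element. Per3 (chr4:151044616-151044915, minus strand) held 2 D-boxes (TTATGTAA, at -205 and -158 from the start), an element present in 0.938% of 32851 windows of this length. Arntl (chr7:113207261-113207560, plus strand) held the response element core TAGGTCA at +30, present in 2.61% of windows. Tef (chr15:81802423-81802722, plus strand) held the E-box CACGTG at -127, present in 7.15% of windows, and its other window held one at -138. Nr1d1 (chr11:98775328-98775627, minus strand) held the variant CACGTT at -28, on the other strand, present in 4.68% of windows.
Per3: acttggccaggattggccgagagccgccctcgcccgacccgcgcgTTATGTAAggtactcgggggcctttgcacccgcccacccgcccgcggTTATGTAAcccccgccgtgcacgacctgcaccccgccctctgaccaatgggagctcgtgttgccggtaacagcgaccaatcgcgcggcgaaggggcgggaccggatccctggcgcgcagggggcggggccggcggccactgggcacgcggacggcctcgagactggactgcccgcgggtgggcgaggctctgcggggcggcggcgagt
Arntl: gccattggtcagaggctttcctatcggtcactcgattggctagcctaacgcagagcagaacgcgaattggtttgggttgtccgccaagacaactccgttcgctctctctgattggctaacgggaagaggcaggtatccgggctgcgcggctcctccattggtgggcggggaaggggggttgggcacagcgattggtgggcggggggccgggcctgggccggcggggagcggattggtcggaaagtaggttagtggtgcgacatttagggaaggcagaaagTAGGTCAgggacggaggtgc
Tef: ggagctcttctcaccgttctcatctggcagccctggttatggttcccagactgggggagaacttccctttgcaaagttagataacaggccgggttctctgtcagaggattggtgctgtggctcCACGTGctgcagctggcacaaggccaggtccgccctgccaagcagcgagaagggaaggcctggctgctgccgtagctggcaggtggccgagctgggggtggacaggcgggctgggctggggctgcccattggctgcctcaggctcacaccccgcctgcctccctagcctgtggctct
Nr1d1: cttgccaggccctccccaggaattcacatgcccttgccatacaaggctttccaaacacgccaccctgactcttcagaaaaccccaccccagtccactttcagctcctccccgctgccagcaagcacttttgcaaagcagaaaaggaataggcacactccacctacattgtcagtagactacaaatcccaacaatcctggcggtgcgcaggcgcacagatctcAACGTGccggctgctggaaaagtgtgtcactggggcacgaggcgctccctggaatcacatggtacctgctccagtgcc
Per1 also held an E-box, at -166 of 1 of its windows (chr11:69098699-69098998). The windows of Dbp, Nr1d2, Clock and Npas2, the other Arntl window and the other Per1 window held none of the 5 motifs searched. All motifs were searched on both strands, and no window of these genes held the cAMP response element TGACGTCA, present in 1.79% of windows. A match in these windows is a description of sequence, and binding was not measured here.

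Total counts ran from 13336746 to 16837265 per library. Mitochondrial genes took 10.4 to 44.2% of them, so levels are given as CPM, the counts relative to a library size scaled by TMM, whose factor ran from 0.726 to 1.25. Scaling by plain totals moved the median over all tested genes by 0.233 on the log2 scale between IRR_6w and Control_6w, by 0.318 between IRR_6w and IRR_1d and by 0.0758 to 0.237 in the other comparisons. All 8 heart muscle genes looked at (Myh6, Tnnt2 and others) were counted in every library, with a sum of 4847 to 42914 CPM. The lowest sum was in Control_6w replicate 3, which also held 3680 CPM of thymus genes against at most 50.1 elsewhere, 454 CPM of white fat genes and 831 CPM of brown fat genes. IRR_6w replicate 1 held the highest sums of the series for lung genes (421 CPM, of which 345 CPM was Scgb1a1), atrial genes (2841 CPM), white fat genes (1895 CPM), brown fat genes (1087 CPM) and erythroid genes (62955 CPM), and IRR_1d replicate 3 held 1945 CPM of atrial genes and 441 CPM of white fat genes. Macrophage genes summed to 1008 to 1307 CPM in IRR_6w and to 217 to 611 CPM in Control_6w. In Control_1d replicate 1 and IRR_6w replicate 3, 30.7 and 21.6% of the genes at a median of 2 to 5 CPM elsewhere had 0 counts, so a low value there is less certain than its count implies. To a lesser degree this holds for IRR_6w replicate 4, at 8.62%, against a median of 0.165% over the libraries. In such bulk RNA, fewer cells of a type and less RNA per cell cannot be told apart. As a check of the irradiation labels, 11 of 12 p53 target genes were higher in IRR_1d at an unadjusted p under 0.05 and 7 of 12 in IRR_6w. Of all tested genes, 2.90% passed that threshold in either direction at 1 day and 8.81% at 6 weeks.

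Compared per length of transcript, the level of the clock genes in the heart ran over an order of magnitude. The mean of the group means was 20.3 FPKM for Nr1d2, 15.2 for Tef, 14.3 for Nr1d1, 7.65 for Dbp, 7.53 for Clock, 5.27 for Per1, 3.01 for Arntl, 2.94 for Per2, 1.96 for Per3 and 1.21 for Npas2. The FPKM ranges of neighbours in this order overlapped over the 14 libraries, and Dbp and Clock, like Arntl and Per2, had nearly equal means. The highest group mean was 13.4 times the lowest for Dbp, 6.07 times for Nr1d1, 5.47 times for Per3 and 4.45 times for Arntl, but 1.42 times for Clock. The spread between mice of a group also differed. The biological coefficient of variation in the edgeR fit was 0.266 for Nr1d2, 0.304 for Tef and 0.306 for Clock, against a median of 0.473 over all tested genes, and reached 0.628 for Nr1d1 and 0.769 for Dbp. A given fold change was therefore easier to detect for Nr1d2 and Tef than for Dbp.

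**Figure D1:**
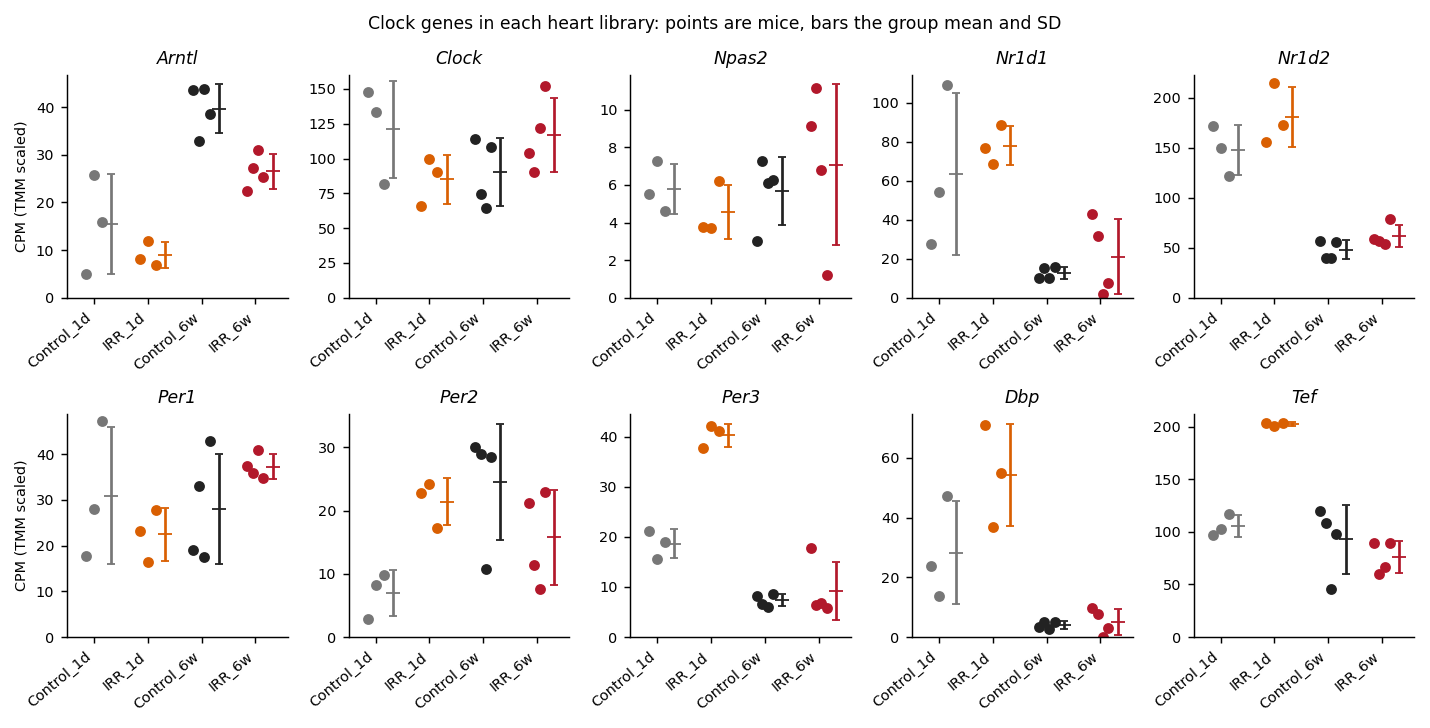
Levels of the 10 clock genes in CPM (TMM scaled, linear axes from 0) in each of the 14 libraries, with the group mean and SD beside the points. Tef, Per2 and Per3 are higher in all 3 IRR_1d mice than in all 3 Control_1d mice, and Nr1d2 and Dbp are lower in all 8 mice of 6 weeks than in all 6 mice of 1 day.

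At 1 day, the comparison of IRR_1d with Control_1d asked how the clock genes stood soon after irradiation. Tef, Per2 and Per3 were higher in the irradiated hearts at an unadjusted p under 0.05, by 1.92, 3.07 and 2.16 times, and none of the 10 genes passed after adjustment. The same rule, an unadjusted p under 0.05 in edgeR's quasi-likelihood test, the source of all p below, held for 2.90% of the 16034 genes, and 3 of the 10 clock genes met it. A call, with a fold change over 2 or under 0.5 and a Benjamini-Hochberg adjusted p under 0.05, was made for 0.0249% of genes and for 0 clock genes, also with DESeq2 and with limma-voom. The groups did not overlap for 10.7% of genes and for 3 of the 10 clock genes. The median size of the log2 fold change was 0.65 over the clock genes and 0.35 over all genes.

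Gene positions are those of mm10. Of the periods, which encode the inhibitors of the loop, Per2 (chr1:91415982-91459324, minus strand) stood at 2.82, 8.26 and 9.86 CPM in Control_1d and at 22.8, 24.2 and 17.2 CPM in IRR_1d. The lowest irradiated heart was above the highest control (log2 fold change 1.62 ± 0.530 SE, adjusted p = 1). Per3 (chr4:151003652-151044665, minus strand) stood at 21.3, 15.5 and 19.0 CPM in the controls and at 37.7, 42.1 and 41.1 CPM in the irradiated hearts, and the groups again did not overlap (log2 fold change 1.11 ± 0.392 SE, adjusted p = 1). Per1 (chr11:69095217-69109960, plus strand), which answers to glucocorticoid and cAMP signals besides the clock, stood at 17.6, 27.9 and 47.2 CPM against 23.3, 16.3 and 27.8 CPM, with overlap (log2 fold change -0.46 ± 0.391 SE, adjusted p = 1). Per3 missed the unadjusted threshold without Control_1d replicate 2, while its log2 fold change stayed at 1.02 to 1.22 with 1 library left out. The paralogs thus had fold changes of unlike sign, and that of Per1, which did not pass, turned to 0.0128 without Control_1d replicate 3.

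Of the D-box factors, Tef (chr15:81802421-81826863, plus strand) stood at 96.7, 103 and 117 CPM in Control_1d and at 204, 201 and 203 CPM in IRR_1d. Under TMM scaling the irradiated hearts were within 3 CPM of each other and all above the controls (log2 fold change 0.94 ± 0.314 SE, adjusted p = 1). Under plain totals they were less close, at 194, 163 and 212 CPM. The controls then stood at 107, 74.5 and 102 CPM, again without overlap. Dbp (chr7:45705088-45710203, plus strand) stood at 23.7, 13.9 and 47.2 CPM against 70.8, 36.8 and 54.8 CPM, the same size of fold change (0.94) with an SE of 0.903 and overlapping groups (adjusted p = 1). Leaving out 1 library moved the value for Dbp between 0.63 (without Control_1d replicate 2) and 1.56 (without Control_1d replicate 3). Dbp shares 18% of its exonic bases with Sphk2 on the other strand, and the counting is not stated to use strand.

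The REV-ERB genes, the repressors of Arntl, overlapped between the groups. Nr1d1 (chr11:98767932-98775333, minus strand) stood at 27.5, 54.3 and 109 CPM in Control_1d and at 76.9, 68.7 and 88.5 CPM in IRR_1d (log2 fold change 0.30 ± 0.745 SE, adjusted p = 1). Its sign turned without Control_1d replicate 1 (-0.0645), and the value was 0.96 without Control_1d replicate 3. Nr1d2 (chr14:18204054-18239127, minus strand) stood at 172, 149.6 and 122 CPM against 155, 214 and 172 CPM (log2 fold change 0.29 ± 0.255 SE, adjusted p = 1, and 0.18 to 0.41 with 1 library left out). Nr1d1 ranged far more widely than Nr1d2 among the control mice, and it shares 8.55% of its exonic bases with Thra on the other strand.

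The activators gave lower values in the irradiated hearts, none past the test. Arntl (chr7:113207465-113314126, plus strand) stood at 4.95, 25.8 and 15.8 CPM in Control_1d and at 8.06, 11.9 and 6.81 CPM in IRR_1d (log2 fold change -0.79 ± 0.435 SE, adjusted p = 1). The lowest control value is that of Control_1d replicate 1, the library with many genes at 0 counts, and without it the log2 fold change was -1.22 and passed the unadjusted threshold (adjusted p = 1), whereas it was -0.21 without Control_1d replicate 2. Clock (chr5:76209868-76304792, minus strand) stood at 148, 134 and 81.6 CPM against 65.7, 99.6 and 90.1 CPM (-0.51 ± 0.314 SE, adjusted p = 1), and passed the unadjusted threshold without Control_1d replicate 3 (-0.69, adjusted p = 0.765). Npas2 (chr1:39193731-39363236, plus strand) stood at 5.52, 7.25 and 4.62 CPM against 3.74, 3.69 and 6.21 CPM (-0.35 ± 0.654 SE, adjusted p = 1, and -0.64 to -0.14 with 1 library left out).

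Of 17 other clock genes (the Cry and Bhlhe40 families, casein kinases and others), 0 passed an unadjusted p under 0.05 at 1 day. The groups did not overlap for 1 of the 17, against 10.7% of all genes. That gene was Hlf, of the same family as Dbp and Tef. It stood at 23.5, 29.4 and 38.4 CPM in the controls and at 45.6, 50.5 and 48.4 CPM in IRR_1d. Of 14 output genes, 3 were higher (Tspan4, Cys1 and Wee1) and 1 was lower at that threshold, which 2.90% of all genes passed. The lower one was Pdk4, a kinase that restrains the use of glucose by heart mitochondria, at 2047, 2104 and 922 CPM in Control_1d against 445, 335 and 291 CPM in IRR_1d (log2 fold change -2.24 ± 0.428 SE, adjusted p = 0.261). Wee1, a brake on mitosis, had a log2 change of 0.91 ± 0.337 (SE, adjusted p = 1). Of 10 glucocorticoid-induced genes, Sgk1 alone passed the unadjusted threshold and was lower (-1.36 ± 0.583 SE, adjusted p = 1). Of 8 temperature-responsive genes, Hsph1 alone passed it and was lower (-1.65 ± 0.519 SE, adjusted p = 1). The part of stress hormones or body temperature in the clock values was not tested.

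At 6 weeks, the comparison of IRR_6w with Control_6w asked the same question late after irradiation. No clock gene passed even an unadjusted p under 0.05, while 8.81% of all genes did. Calls were made for 0.256% of genes and for 0 clock genes, also with DESeq2 and with limma-voom. The groups did not overlap for 5.72% of genes and for 1 clock gene, Arntl. The median size of the log2 fold change was 0.36 over the clock genes and 0.41 over all genes.

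Arntl stood at 43.5, 32.9, 43.8 and 38.5 CPM in Control_6w and at 22.3, 27.2, 31.1 and 25.4 CPM in IRR_6w (log2 fold change -0.58 ± 0.371 SE, adjusted p = 0.71). All irradiated hearts were below all controls under TMM scaling, but the groups overlapped under plain library totals. Nr1d2 stood at 57.0, 40.1, 40.05 and 55.7 CPM in the controls and at 58.8, 56.4, 53.3 and 78.4 CPM in IRR_6w (0.36 ± 0.222 SE, adjusted p = 0.704, and 0.22 to 0.43 with 1 library left out). For Nr1d2 the groups overlapped under TMM and separated under plain totals. Nr1d1 stood at 10.1, 15.1, 10.2 and 16.0 CPM against 42.8, 31.5, 2.04 and 7.79 CPM (0.71 ± 0.653 SE, adjusted p = 0.807), so that the irradiated hearts lay on both sides of every control. Leaving out 1 library moved this value between 0.0986 (without IRR_6w replicate 1) and 1.09 (without IRR_6w replicate 3). Replicate 1, the highest, is the library with RNA of several other tissues. In replicate 3, the lowest, many low genes had 0 counts.

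The periods were mixed at 6 weeks. Per1 stood at 19.0, 33.0, 17.5 and 42.8 CPM in Control_6w and at 37.4, 35.8, 40.9 and 34.7 CPM in IRR_6w (log2 fold change 0.41 ± 0.337 SE, adjusted p = 0.783). Leaving out 1 library moved the value for Per1 between 0.24 (without Control_6w replicate 3) and 0.69 (without Control_6w replicate 4). Per2 stood at 30.1, 28.9, 10.8 and 28.5 CPM in the controls and at 21.3, 11.4, 7.57 and 22.9 CPM in IRR_6w (-0.64 ± 0.446 SE, adjusted p = 0.743). The low control for Per2 is replicate 3, the library with thymus and fat RNA, and without it the log2 fold change was -0.88. Per3 stood at 8.14, 6.66, 6.10 and 8.56 CPM against 17.7, 6.32, 6.87 and 5.89 CPM (0.32 ± 0.339 SE, adjusted p = 0.834), and the high value is that of IRR_6w replicate 1, the library with RNA of several other tissues. Without that library the log2 fold change of Per3 was -0.21.

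The D-box factors and the partners of ARNTL overlapped as well. Tef stood at 120.2, 108, 45.7 and 97.6 CPM in Control_6w and at 89.2, 59.8, 66.8 and 89.4 CPM in IRR_6w (log2 fold change -0.28 ± 0.270 SE, adjusted p = 0.818, and 0.00244 under plain totals). The low control is again replicate 3, and without it the log2 fold change was -0.51 and passed the unadjusted threshold (adjusted p = 0.337). Dbp stood at 3.43, 5.20, 2.56 and 4.99 CPM against 9.72, 7.59, 0 and 3.18 CPM (0.34 ± 0.798 SE, adjusted p = 0.934). The 0 for Dbp is that of IRR_6w replicate 3, where many low genes had 0 counts, and the sign of its fold change turned without IRR_6w replicate 1 (-0.17). Clock stood at 114, 74.5, 64.5 and 108 CPM against 104, 90.1, 122 and 152 CPM (0.37 ± 0.272 SE, adjusted p = 0.754, and 0.22 to 0.48 with 1 library left out). Npas2 stood at 3.04, 7.27, 6.10 and 6.27 CPM against 9.15, 11.1, 6.81 and 1.24 CPM (0.32 ± 0.564 SE, adjusted p = 0.908), a value that ran from 0.0140 (without IRR_6w replicate 2) to 0.67 (without IRR_6w replicate 4) when 1 library was left out.

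Among the 17 other clock genes, 1 was higher and 1 was lower at an unadjusted p under 0.05 at 6 weeks, none called, against 8.81% of all genes at that threshold. Bhlhe40, a repressor that competes at E-boxes, stood at 42.2, 49.7, 46.2 and 62.8 CPM in Control_6w and at 112, 79.6, 86.7 and 93.6 CPM in IRR_6w, with no overlap (log2 fold change 0.89 ± 0.243 SE, adjusted p = 0.162). Macrophage marker genes were also higher in all IRR_6w hearts than in all Control_6w hearts, and their part in this value was not tested. Cry1, a partner of the PER proteins, stood at 44.9, 35.7, 44.3 and 34.6 CPM in the controls and at 18.3, 17.3, 17.4 and 38.3 CPM in IRR_6w (-0.80 ± 0.285 SE, adjusted p = 0.369). Of the 14 output genes, Tspan4 alone passed the unadjusted threshold (0.85 ± 0.263 SE, adjusted p = 0.245). Of the 10 glucocorticoid-induced genes, Fkbp5 and Zbtb16 were lower at that threshold, and Fkbp5 reached 138 CPM in Control_6w replicate 3, the library with thymus and fat RNA, against 36.8 to 39.5 CPM in the other controls.

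The irradiation effects at the 2 time points share no libraries. The fold changes had the same sign in 5 of the 10 clock genes, against 54.1% of all genes, and 0 of the 10 passed an unadjusted p under 0.05 with the same sign at both times, against 0.805% of all genes. Tested as an interaction in the edgeR fit, the change in the effect had an unadjusted p under 0.05 for 3.14% of genes and was called for 0% of them. The clock genes gave 2 at that threshold, 3 with DESeq2 and 2 with limma-voom, and 0 calls with each. The 2 in the edgeR fit were genes that were higher at 1 day. For Per2 the effect at 6 weeks was lower than that at 1 day by 2.26 on the log2 scale (log2 change -2.26 ± 0.690 SE, adjusted p = 0.990), and for Tef by 1.23 (-1.23 ± 0.413 SE, adjusted p = 0.990). The unadjusted results of Per2 and Tef held under all 22 alternatives that were run. Clock gave a change of 0.88 ± 0.416 (SE, adjusted p = 0.990) and Per1 of 0.87 ± 0.516 (SE, adjusted p = 0.990), and these passed the unadjusted threshold in 9 and 2 of the 22 alternatives. DESeq2 was among the 9 for Clock.

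**Figure D2:**
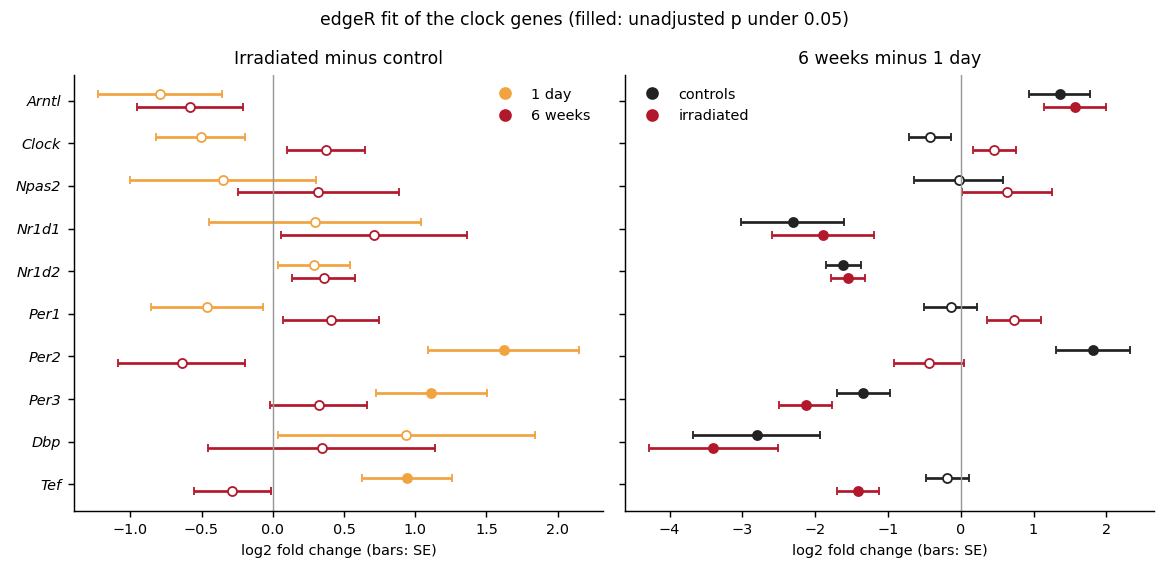
Log2 fold changes of the 10 clock genes with their SE from the edgeR fit, for irradiated minus control at 1 day and 6 weeks (left) and for 6 weeks minus 1 day in both sets of mice (right), filled where the unadjusted p was under 0.05. Filled points on the left are Per2, Per3 and Tef at 1 day, with none at 6 weeks, and 6 points are filled in each series on the right.

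The shift between 6 weeks and 1 day is set apart because the hour of collection is unknown. In both sets of mice, Arntl was higher at 6 weeks and Nr1d1, Nr1d2, Dbp and Per3 were lower, each at an unadjusted p under 0.05. These 2 comparisons share no library. The 5 genes that passed in both with the same sign are 5 of 10 clock genes, against 0.692% of all genes (111 of 16034). In the controls 5.28% of genes passed the unadjusted threshold, 0% were called and 5.92% did not overlap, and the clock genes gave 6, 0 and 6, with 1 called by DESeq2 and 0 by limma-voom. In the irradiated mice the shares were 5.79, 0.0374 and 9.31%, and the clock genes gave 6, 1 and 7 (with Clock as 1 more without overlap under plain totals). The members called there numbered 5 with DESeq2 and 2 with limma-voom. They numbered 0 with library totals, with only the 2 groups compared and with the replicate block. The median size of the log2 fold change over the clock genes was 1.35 (controls) and 1.48 (irradiated), against 0.38 and 0.37 over all genes.

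Among the activators, Arntl went from 4.95 to 25.8 CPM in Control_1d to 32.9 to 43.8 CPM in Control_6w (log2 fold change 1.36 ± 0.417 SE, adjusted p = 0.902). In the irradiated mice it went from 6.81 to 11.9 CPM to 22.3 to 31.1 CPM (1.57 ± 0.421 SE, adjusted p = 0.427). Neither pair of groups overlapped. The partner genes did not pass in either set of mice, with log2 fold changes of -0.42 and 0.46 for Clock and -0.03 and 0.64 for Npas2.

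Among the repressors of Arntl, Nr1d2 stood at 122 to 172 CPM in Control_1d and at 40.05 to 57.0 CPM in Control_6w. Its log2 change of -1.62 ± 0.239 (SE, adjusted p = 0.127) had the smallest unadjusted p of the 16034 genes in the controls. Nr1d1 stood at 27.5 to 109 CPM in Control_1d against 10.1 to 16.0 CPM in Control_6w (-2.31 ± 0.709 SE, adjusted p = 0.902), and at 68.7 to 88.5 CPM in IRR_1d against 2.04 to 42.8 CPM in IRR_6w (-1.89 ± 0.700 SE, adjusted p = 0.734). None of these pairs of groups overlapped. With 1 library left out, the value for Nr1d1 ran from -2.67 to -1.65 in the controls and from -2.50 to -1.51 in the irradiated mice. In the irradiated mice Nr1d2 was the 1 clock gene called (adjusted p = 0.0389), and its adjusted p ran from 4.80e-07 to 0.284 over the alternatives. The call was lost without any 1 of 8 libraries (Control_1d replicate 1 or 2, any of IRR_1d, Control_6w replicate 4, and IRR_6w replicate 2 or 3). It was also lost with library totals, with only the 2 groups compared and with the replicate block. The log2 change was -1.55 ± 0.238 (SE), kept its sign in 23 of 23 alternatives and ran from -1.68 to -1.20 over them. The difference in shift between controls and irradiated mice was 0.07 for Nr1d2 (SE 0.338, adjusted p = 0.995).

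Among the periods, Per3 was lower in both sets of mice, with a log2 fold change of -1.34 in the controls (SE 0.363, adjusted p = 0.902) and -2.13 in the irradiated mice (SE 0.366, adjusted p = 0.0640). The groups did not overlap, and the irradiated hearts went from 37.7 to 42.1 CPM at 1 day to 5.89 to 17.7 CPM at 6 weeks. Per2 moved the other way in the controls, from 2.82 to 9.86 CPM to 10.8 to 30.1 CPM (1.82 ± 0.511 SE, adjusted p = 0.902), and gave -0.44 in the irradiated mice (SE 0.477, adjusted p = 0.999). Per1 gave -0.14 in Control_6w against Control_1d, and 0.73 between the irradiated groups (adjusted p = 0.904), where the groups did not overlap.

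Among the D-box factors, Dbp gave the lowest fold changes of the 10 genes. It stood at 13.9 to 47.2 CPM in Control_1d and at 2.56 to 5.20 CPM in Control_6w (log2 fold change -2.81 ± 0.871 SE, adjusted p = 0.902). In the irradiated mice it stood at 36.8 to 70.8 CPM and at 0 to 9.72 CPM (-3.40 ± 0.882 SE, adjusted p = 0.376). With 1 library left out, the value for Dbp ran from -3.13 to -2.19 in the controls and from -3.91 to -2.99 in the irradiated mice. Over all alternatives it reached -4.88 in the irradiated mice. Tef did not pass in the controls (-0.18 ± 0.290 SE, adjusted p = 0.946) and was lower in the irradiated mice (-1.41 ± 0.290 SE, adjusted p = 0.134), from 201 to 204 CPM to 59.8 to 89.4 CPM. The shift in the controls shares the Control_1d libraries with the irradiation effect at 1 day, and that in the irradiated mice shares the IRR_1d libraries with it, so the values of Per2 and Tef in these comparisons are not independent.

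With both sets of mice averaged, 0.106% of genes were called, 8.27% passed the unadjusted threshold and 0.412% did not overlap between all 8 mice of 6 weeks and all 6 of 1 day. The clock genes gave 2, 6 and 2. The groups of Nr1d2 were apart under TMM and under plain totals, those of Dbp under TMM and those of Arntl under plain totals. The 2 calls were Nr1d2 (log2 fold change -1.58 ± 0.169 SE, adjusted p = 8.81e-04) and Per3 (-1.73 ± 0.258 SE, adjusted p = 0.0190). Arntl (1.47, adjusted p = 0.10), Dbp (-3.10, adjusted p = 0.0911), Nr1d1 (-2.10, adjusted p = 0.230) and Tef (-0.80, adjusted p = 0.286) passed before adjustment. The adjusted p of Nr1d2 was at most 0.0148 over 22 alternatives, and that of Per3 at most 0.112. The call for Per3 was lost without any 1 of 6 libraries (any of Control_1d, IRR_1d replicate 1 or 2, and Control_6w replicate 2).

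Of the 17 other clock genes, 3 were higher and 1 was lower at an unadjusted p under 0.05 in the averaged shift, and 2 were called, against 8.27 and 0.106% of all genes. Nfil3, which encodes the repressor at D-boxes, stood at 6.35 to 11.4 CPM in the 6 mice of 1 day and at 15.6 to 44.5 CPM in the 8 mice of 6 weeks (log2 fold change 1.63 ± 0.257 SE, adjusted p = 0.0263). Cry1 stood at 9.67 to 14.9 CPM and at 17.3 to 44.9 CPM (1.37 ± 0.226 SE, adjusted p = 0.0274). Hlf passed before adjustment and was lower (-0.79 ± 0.209 SE, adjusted p = 0.317). Nfil3 and Cry1 thus shared the sign of Arntl, and Hlf that of Dbp and Tef. Of the 14 output genes none passed in the averaged shift. In the controls Pdk4 was lower (-1.79 ± 0.383 SE, adjusted p = 0.482) and Cys1 higher (1.17, adjusted p = 0.902) at the unadjusted threshold. In the irradiated mice Usp2 was lower at that threshold (-1.08 ± 0.442 SE, adjusted p = 0.807). Pdk4 and Cys1 also passed it in the irradiation effect at 1 day. That comparison shares the Control_1d libraries with the shift in the controls, so the values of these genes are not independent.

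**Figure D3:**
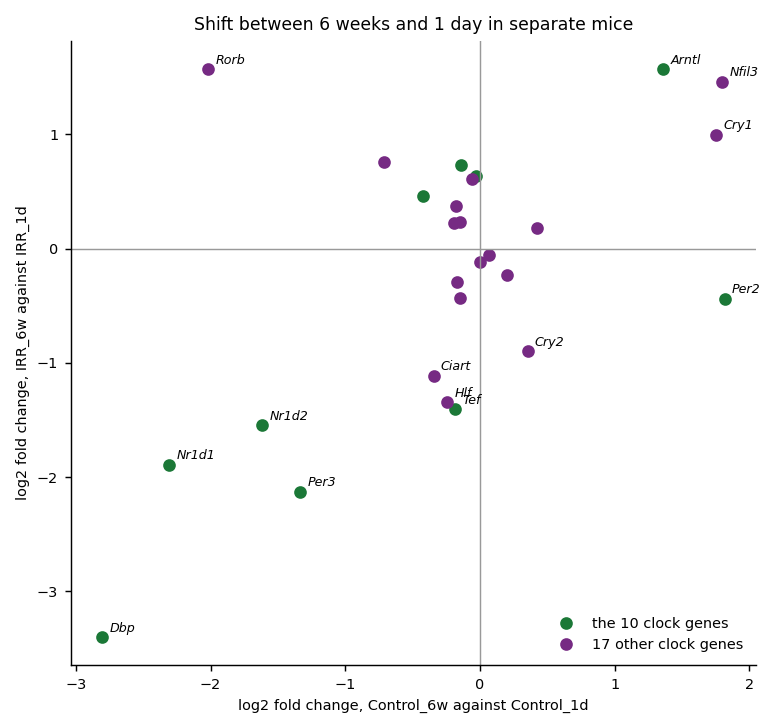
Log2 fold change between 6 weeks and 1 day in the irradiated mice against that in the controls, for the 10 clock genes and 17 other clock genes, each point a gene and both axes from the edgeR fit. Nr1d1, Nr1d2, Dbp and Per3 lie low on both axes and Arntl, Nfil3 and Cry1 high on both, whereas Per2 moved on the axis of the controls and Tef and Hlf on that of the irradiated mice.

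Ratios of counts within a library do not depend on how libraries are scaled. They were formed to Arntl after the values above were seen, for the 7 genes other than its partners, and carry no test. Nr1d2 to Arntl was 34.7, 5.80 and 7.71 in Control_1d and 19.3, 17.96 and 25.3 in IRR_1d. At 6 weeks it was 1.31, 1.22, 0.914 and 1.45 in Control_6w and 2.64, 2.08, 1.71 and 3.08 in IRR_6w. The ratio was higher in every irradiated heart of 6 weeks than in every control, and lower in all 8 hearts of 6 weeks than in all 6 of 1 day. Per1 to Arntl was also higher in every IRR_6w heart, at 1.31 to 1.68 against 0.399 to 1.11. At 1 day only the ratio of Per2 separated the groups, at 2.03 to 2.83 against 0.320 to 0.624. Without Control_1d replicate 1 the ratio was higher in every IRR_1d heart for 5 of the 7 genes (Nr1d2, Per3, Tef, Dbp and Per2). That library held the lowest control value of Arntl. Without it Arntl alone separated the groups, at 15.8 and 25.8 CPM in Control_1d against 6.81 to 11.9 CPM in IRR_1d, which raises every ratio. Of the 7 ratios, 5 were lower without overlap in Control_6w than in Control_1d, and 6 in IRR_6w than in IRR_1d. Arntl itself was higher at 6 weeks without overlap in both sets of mice, which lowers every ratio to it. The share of such ratios over all genes was not formed, so these counts cannot be separated from the change in Arntl. Since Arntl is in every ratio, they are not 7 separate results. The higher ratios in IRR_6w carry the lower values of Arntl there as well.

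**Figure D4:**
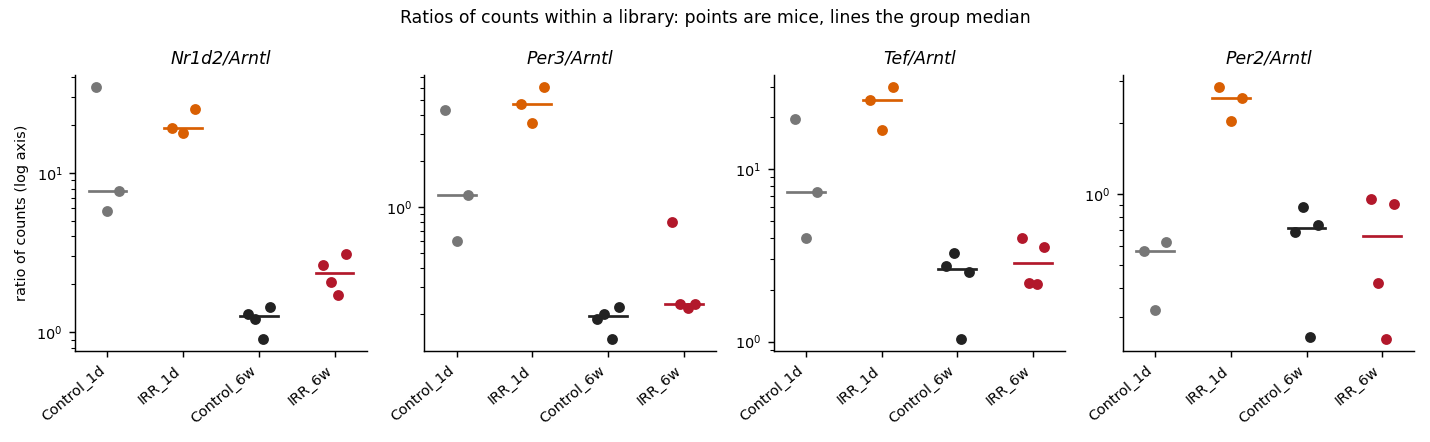
Ratios of the counts of Nr1d2, Per3, Tef and Per2 to those of Arntl in each of the 14 libraries (log axes), with lines at the group medians. For Nr1d2 all 4 IRR_6w mice lie above all 4 Control_6w mice, and both groups lie below all 6 mice of 1 day.

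Across the 14 libraries, among the genes most like Dbp in log2 CPM were Plpp5 (Pearson r = 0.912), Iars2 (0.910), Lgr6 (0.905) and Art4 (0.896), of which none is a clock gene. Without IRR_6w replicate 3, where Dbp had 0 counts, these fell to 0.795, 0.800, 0.842 and 0.756, below Per3 (0.924) and Nr1d2 (0.852). Nr1d1 was closer still, with r = 0.952, the highest value of all tested genes, and 0.928 without that library. Around the group means, with that library included, r was 0.898 for Nr1d1. It was 0.917 for Plpp5, 0.833 for Iars2, 0.817 for Lgr6 and 0.857 for Art4. For Arntl the most like genes were Ppp1r16b (0.874), Trp53i11 (0.868), Stim2 (0.848), Arhgap27 (0.846) and Arhgap8 (0.844). Nr1d2 and Per3 stood near the opposite end, with r = -0.842 and -0.833. Around the group means these were -0.14 and -0.31. The 14 libraries share groups, depth and scaling, and these values are a description.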

How the data were processed

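Heart RNA of 14 mice was sequenced, 1 library each. The authors checked the reads with FastQC 0.11.8, trimmed them with Trim Galore 0.6.1, aligned them to mm10 with STAR 2.5.0a and counted them per gene with HTSeq 0.10.0, and the deposited counts are whole numbers, not normalized. Strandedness, counting mode and annotation release are not given in the sources used here. The 10 genes have the same coordinates in GENCODE M21 (GRCm38). The table also pairs each gene with a length, from which FPKM was computed here with the TMM-scaled library size.

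The members, lists and tests were chosen with earlier results of these data known. Counts were fitted with edgeR 4.0.16 in R 4.3.3 (filterByExpr, TMM, 1 model of the 4 groups, quasi-likelihood test, Benjamini-Hochberg adjustment over 16034 genes). The 6 comparisons were the irradiation effect at each time, the shift between times in each set of mice and averaged, and the change in effect. SE is the log2 fold change over the root of F. All 10 genes were named with their values in each library, other lists by counts and their genes of smallest unadjusted p, and like genes by the highest Pearson r with Dbp and Arntl on log2 CPM (prior count 2). DESeq2 1.42.0 and limma-voom 3.58.1, library totals, no filter, 2 groups only, a replicate block and leaving libraries out served as alternatives, and the fit was tested on simulated data. By counting alone, 0 counts allow up to 3 at 95% confidence. Separate mice were the replicates. Some genes that these rules would name are not reported here.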

Additional observations from a re-analysis of the deposited data

Results flagged for a closer look

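In Control_6w, Per2 stood at 10.8 CPM in replicate 3, far from the 28.5 to 30.1 CPM of the other 3 mice, with a gap that took 0.919 of the range of the group. This is the library with thymus and fat RNA and the lowest heart muscle sum. In IRR_6w, Per3 stood at 17.7 CPM in replicate 1, against 5.89 to 6.87 CPM in the other 3 mice, with a gap of 0.917 of the range. This is the library with RNA of several other tissues. In all, 22 sets of 4 values were looked at, each set a gene or ratio in Control_6w or IRR_6w. Chance alone sets about 1 set in 20 apart in this way. The sets come from the same mice and are not independent, and the part of the other tissues was not tested.

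The irradiation effect differed between the time points at an unadjusted p under 0.05 for Tef, with a log2 difference of -1.23 (edgeR adjusted p = 0.990), and for Per2, with -2.26 (edgeR adjusted p = 0.990). Tef was higher in all 3 irradiated mice of 1 day than in their controls, and so was Per2. For Clock and Per1, every irradiated mouse of 1 day was below the mean log2 CPM of its controls and every irradiated mouse of 6 weeks was on the other side of its own, with log2 differences between the effects of 0.865 and 0.868. By that reading the difference was not tested, and the interaction in the edgeR fit passed the unadjusted threshold for neither gene (adjusted p = 0.990 for both), but did so in 9 of 22 alternatives for Clock and in 2 for Per1.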

How the results depend on the processing

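For both irradiation effects and the change in effect, 0 clock genes were called under every alternative run. Tef and Per2 at 1 day kept an unadjusted p under 0.05 in 23 of 23 alternatives and Per3 in 22, being lost without Control_1d replicate 2. The log2 fold change of Per3 ran from 1.02 to 1.22 over these alternatives. Leaving out 1 library at a time, the members at that threshold numbered 2 to 4 at 1 day, 0 to 1 at 6 weeks (1 without Control_1d replicate 1, 1 without Control_6w replicate 3) and 2 to 4 for the change in effect (4 without Control_6w replicate 4 and 4 without IRR_6w replicate 1). Members called numbered 0 to 3 for the shift in the irradiated mice (0 without Control_1d replicate 1 or 2, any of IRR_1d, Control_6w replicate 4, or IRR_6w replicate 2 or 3, 3 without Control_6w replicate 3, 2 without IRR_6w replicate 1) and 1 to 3 averaged (1 without any of Control_1d, IRR_1d replicate 1 or 2, or Control_6w replicate 2, and 3 without IRR_6w replicate 3). The members called in the irradiated shift were 0 with library totals, 0 with only the 2 groups, 3 with no filter on low counts, 5 with DESeq2, 2 with limma-voom, 3 without the 3 libraries with RNA of other tissues and 0 without the 2 libraries with many genes at 0 counts, a choice made after seeing the data. Averaged, they were 3 with library totals, 5 with no filter, 5 with DESeq2 and 3 with limma-voom. In the controls 1 was called with no filter and 1 with DESeq2. At 6 weeks, 1 member passed the unadjusted threshold with library totals, 1 with only the 2 groups, 2 without the 3 libraries with other tissues and 2 without the 2 libraries with many zeros. For the change in effect 3 passed with library totals, 3 with DESeq2 and 3 with DESeq2-like size factors in edgeR, Clock being the one gained in each, and 3 without the 3 libraries, with Per3 gained. Replicate numbers did not pair the mice (median correlation of same-numbered libraries -0.0255, 3 of 19 pairs over 0.1, 2 of 14 libraries best with their own number). With the replicate block 0 members were called in the irradiated shift and 1 averaged, and no other count of members changed.

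Of the member fold changes, 40 of those recomputed turned sign, none of them past the unadjusted threshold in the main fit. Without single libraries, Nr1d1 ran from -0.0645 (without Control_1d replicate 1) to 0.96 and Per1 from -0.74 to 0.0128 (without Control_1d replicate 3) at 1 day, and Dbp from -0.17 to 0.75 and Per3 from -0.21 to 0.48 at 6 weeks, both lowest without IRR_6w replicate 1. In the controls, Npas2 ran from -0.16 to 0.19, Tef from -0.32 to 0.0424 and Per1 from -0.44 to 0.33, and in the averaged shift Clock ran from -0.0898 to 0.10. For the change in effect, Arntl ran from -0.38 to 0.63, Nr1d1 from -0.23 to 0.79 and Nr1d2 from -0.0684 to 0.17. Library totals gave 0.00244 for Tef at 6 weeks, and 0.13 for Npas2 and 0.00742 for Per1 in the controls. With limma-voom, Npas2 gave -0.17, Dbp -1.10 and Nr1d1 -0.0314 at 6 weeks, and the change in effect was -0.16 for Arntl and -0.54 for Nr1d1. Without the 3 libraries with other tissues, Dbp gave -0.34 and Per3 -0.29 at 6 weeks, Tef 0.0429 and Per1 0.0321 in the controls, and the change in effect was -0.19 for Nr1d1 and -0.0250 for Nr1d2. Without the 2 libraries with many zeros, Nr1d1 gave -0.0644 at 1 day. With the replicate block, Npas2 gave 0.26 in the controls and Clock -0.11 in the averaged shift. The cause was not tested.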

Other observations

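Of 8 temperature-responsive genes, 6 were higher and 1 was lower at an unadjusted p under 0.05 in the shift averaged over both sets of mice, against 8.27% of all genes, and 3 heat shock genes were called, against 0.106%. The list was not tested as a group, and its median log2 change was 1.31, against 0.06 over all genes. Hspa1a gave a log2 change of 2.61 ± 0.418 (SE, edgeR adjusted p = 0.0274), Hsph1 of 2.21 ± 0.360 (SE, edgeR adjusted p = 0.0274) and Hspa1b of 3.66 ± 0.612 (SE, edgeR adjusted p = 0.0298). Hspa1a and Hspa1b are near-identical copies, and how reads were split between them is not known. Cirbp, an RNA-binding protein that rises in the cold, was the 1 that was lower (-0.58, SE 0.179, adjusted p = 0.390). Under TMM scaling it stood at 21.4 to 31.5 CPM in the 6 mice of 1 day and at 13.2 to 21.3 CPM in the 8 mice of 6 weeks. These ranges did not overlap but nearly touched. Rbm3, which also rises in the cold, did not pass (0.14, adjusted p = 0.965).

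Of 10 glucocorticoid-induced genes, 2 were higher at an unadjusted p under 0.05 in the averaged shift, against 8.27% of all genes. Fkbp5 gave 1.41 (SE 0.318, adjusted p = 0.180), a value that includes the 138 CPM of Control_6w replicate 3, against 18.5 to 39.5 CPM in the other 7 mice of 6 weeks and 12.2 to 21.0 CPM in the 6 of 1 day, and Errfi1 gave 0.78 (SE 0.222, adjusted p = 0.368). These lists share their libraries with the clock genes, and the part of temperature, hormones, hour or handling was not tested.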
